A study of Mus musculus with 5 samples.

Results

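Very broad H3K27ac peaks were taken as all peaks of 4000 bp or more on chromosomes 1 to 19. The rule gave 564 peaks among 22948 in the whole list, or 2.46%. H3K27ac is the acetylation of lysine 27 of histone H3, a mark of active promoters and enhancers. It was measured by ChIPmentation, in which the Tn5 transposase adds sequencing adapters to chromatin held on the antibody. The cells were mouse bone marrow cells sorted as CD45.2+Lineage-Sca1+Kit+, labelled HSC/MPP (haematopoietic stem cells and multipotent progenitors), with the genotype Mll3/4 deleted. The labels give 4 H3K27ac libraries and 1 Input library, all of this genotype. They name neither the Cre driver nor the age of the mice. The deposited values are 1 peak list for the 4 libraries together. There is thus no value of a single library, no replicate error and no comparison between genotypes. Intervals below are 95% Wilson intervals for shares and order-statistic intervals for medians. Both run over peaks or genes, which are not replicates, so they cover counting error only.

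The deleted genes, listed today as Kmt2c and Kmt2d, make enzymes that methylate histone H3 at enhancers, where the acetyltransferases p300 and CBP also work. H3K27ac is usually laid down in short stretches around nucleosome-free sites. In some places acetylated stretches run together over many nucleosomes, commonly at genes that define a cell's identity. In the lymphoid branch of blood formation, Foxo1, Ikzf1, Ebf1 and Pax5 are transcription factors that set up the B-cell programme, and Rag1 and Rag2 form the recombinase that assembles antigen receptor genes.

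The very broad peaks made up 2.49% of the peaks on chromosomes 1 to 19 and 12.1% of the bases under them. Of the 564, 398 were under 6000 bp wide, 139 were between that and 10 kb, and 27 were 10 kb or wider, around a median of 5050 bp and quartiles of 4382 and 6274 bp. The peaks were chosen by their measured width, which the peak caller set from the same reads as their strength, so width and strength are given as a description. Their median signal value, the authors' enrichment ratio over background, was 7.19 (interquartile range 5.42 to 9.31), against 3.22 (2.66 to 4.48) for the 22054 narrower peaks. The lowest −log10 q among the very broad peaks was 2.40, and 35 of the 564 had a signal value under 4. Of the narrower peaks, 4817 of 22054 (21.8%) had a q above 0.05. They are counted in the shares of narrower peaks and of any peak below. At the threshold, the last peaks inside were 4002 bp over Nfkbil1 and Atp6v1g2, 4003 bp in Snx8 and 4006 bp in Jakmip1, with signal values of 4.53, 8.14 and 7.35. The first peaks outside were 3997 bp in Ppp1r15b, 3997 bp in Slc6a6 and 3994 bp in Ube2e3, with signal values of 8.45, 7.16 and 6.30.

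**Figure D1:**
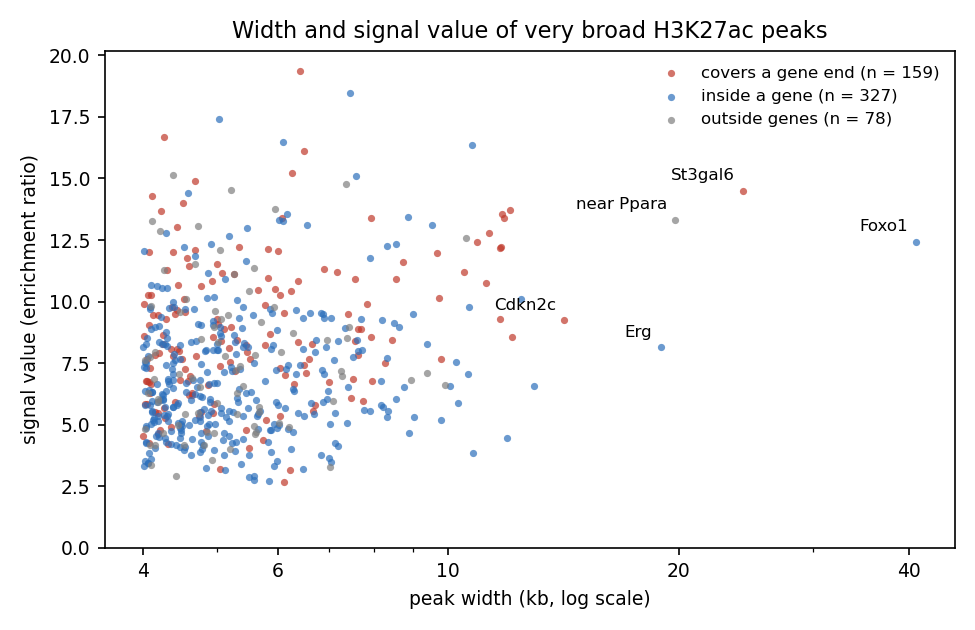
Width (kb, log scale) against the authors' signal value for the 564 very broad peaks, coloured by position relative to protein-coding genes; each point is a peak. Most points lie below 10 kb at all signal values, and the 40850 bp peak in Foxo1 lies apart at the right with a signal value of 12.4.

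The start regions of 3 genes under the widest peaks are printed here. They show how differently the DNA before the starts of such genes can be built. Each run is the 250 bases before a listed start, from RefSeq (GRCm38.p6), 5′ to 3′ along the gene, with CpG dinucleotides in capitals.
Foxo1, chr3:52268087-52268336 (+ strand): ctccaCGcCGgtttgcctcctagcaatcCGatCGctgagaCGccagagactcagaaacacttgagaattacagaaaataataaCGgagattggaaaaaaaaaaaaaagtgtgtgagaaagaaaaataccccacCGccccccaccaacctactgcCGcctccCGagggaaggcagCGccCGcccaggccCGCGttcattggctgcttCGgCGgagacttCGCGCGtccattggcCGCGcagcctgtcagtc
Ikzf1, upstream start, chr11:11685675-11685924 (+ strand): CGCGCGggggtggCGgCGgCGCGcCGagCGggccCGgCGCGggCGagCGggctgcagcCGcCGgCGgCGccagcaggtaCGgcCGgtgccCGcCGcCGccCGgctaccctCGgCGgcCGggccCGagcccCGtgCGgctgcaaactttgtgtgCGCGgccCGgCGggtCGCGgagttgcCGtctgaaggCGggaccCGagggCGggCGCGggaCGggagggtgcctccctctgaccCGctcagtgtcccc
Ikzf1, downstream start, chr11:11689927-11690176 (+ strand): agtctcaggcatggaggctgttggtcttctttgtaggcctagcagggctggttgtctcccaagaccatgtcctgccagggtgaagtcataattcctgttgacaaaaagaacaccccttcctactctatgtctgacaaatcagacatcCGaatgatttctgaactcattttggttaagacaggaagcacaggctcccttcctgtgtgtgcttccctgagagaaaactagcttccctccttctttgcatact
Rag1, chr2:101649533-101649782 (- strand): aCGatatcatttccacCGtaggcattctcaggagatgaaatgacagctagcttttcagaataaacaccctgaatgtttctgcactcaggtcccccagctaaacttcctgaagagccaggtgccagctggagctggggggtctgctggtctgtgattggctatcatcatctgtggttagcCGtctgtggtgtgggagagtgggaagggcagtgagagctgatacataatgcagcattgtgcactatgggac
The 250 bases hold 20 CpG at Foxo1, 44 at the upstream Ikzf1 start, 1 at the downstream Ikzf1 start and 3 at Rag1. Both Ikzf1 starts and the Rag1 start lie inside a very broad peak. The Foxo1 start lies 204 bp before the low border of its peak.

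The widest peak, chr3:52268541-52309390, was 40850 bp long and lay wholly inside Foxo1, a forkhead transcription factor needed for early B-cell development. Its signal value was 12.4 and its −log10 q 49.6. The summit stood 3941 bp into the gene, at 9.15% of the peak's length, so most of the peak trailed behind it into the gene. Another 3 very broad peaks lay inside the same gene, of 7113, 5118 and 7000 bp with signal values of 4.24, 3.18 and 3.67, and together these 4 covered 73.5% of its span. One of 5286 bp ended 237 bp before the gene with its summit at 90.7% of its length, close to the Foxo1 start, and one of 7070 bp lay 39.1 kb past the gene. Their signal values were 7.22 and 5.97. These 6 spanned 133 kb, the most very broad peaks at any locus when those within 50 kb of one another were joined.

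The next widest peak was 24311 bp (chr16:58500538-58524848) and held the start of St3gal6, a sialyltransferase. As at Foxo1, most of the peak trailed behind the summit into the gene, but here the start lay inside the peak. The peak had 595 bp before the upstream start and 23715 bp into the gene. Its summit was 1739 bp past that start and 912 bp past a second listed start in the peak. The third, 19808 bp long, lay outside protein-coding genes at chr15:85661004-85680811. The nearest such gene was Ppara, a nuclear receptor of fatty acid metabolism, 54.1 kb from the border. Its summit was at 34.1% of its length and its signal value was 13.3. Erg, an ETS transcription factor of stem cells and early lymphoid cells, held the fourth (18950 bp) and also peaks of 10740 and 10642 bp. The 10740 bp peak contained the most downstream of the 3 listed Erg starts and had the highest signal value of these, 16.4. The other Erg peaks of this size lay 41.4 kb and 19.7 kb past that start, measured at their summits, and held no listed start.

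The peak at Ikzf1 (Ikaros, a lymphoid zinc finger factor) was 12450 bp long, began 102 bp before the upstream start and had its summit 5549 bp past it, or 1297 bp past the downstream start. The peak at Ebf1, which commits progenitors to the B lineage, was 10925 bp long and had its summit 1222 bp past the upstream start and 906 bp before the downstream start, both inside the peak. At Meis1, a homeobox factor of stem cells, a peak of 11746 bp ran 10400 bp into the gene. Blnk, the adaptor that links the pre-B-cell receptor to calcium signalling, had a peak of 11747 bp with a signal value of 13.6. The 11691 bp peak at Rag1 covered 99.9% of the gene. Its summit lay 7064 bp past the start, with only 418 bp of the peak before the start. Mzb1, a chaperone of immunoglobulin secretion, and its neighbour Prob1 lay wholly inside a peak of 10492 bp.

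Cdkn2c, a cyclin-dependent kinase inhibitor, lay entirely inside a peak of 14191 bp whose summit was 9959 bp past the first start, beyond the gene. Selplg, the P-selectin ligand, had a peak of 11312 bp, and Vmp1, an autophagy protein, one of 11201 bp at an end. Ube2j1, a ubiquitin-conjugating enzyme of the endoplasmic reticulum, had 11818 bp, of which 8908 bp lay before the start. Ttpal (12061 bp), Eya1 (11681 bp) and the pair Rnase11 and Rnase12 (12139 bp) had peaks over a gene end. Fam53b (12954 bp), Aopep (11960 bp), Nedd9 (10775 bp), Cxxc5 (10636 bp) and Ntn1 (10302 bp) had theirs inside the gene. Another of the 25, of 10572 bp, lay outside protein-coding genes, 32.0 kb from Ift57 and over the lncRNA gene Gm16619.

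**Figure D2:**
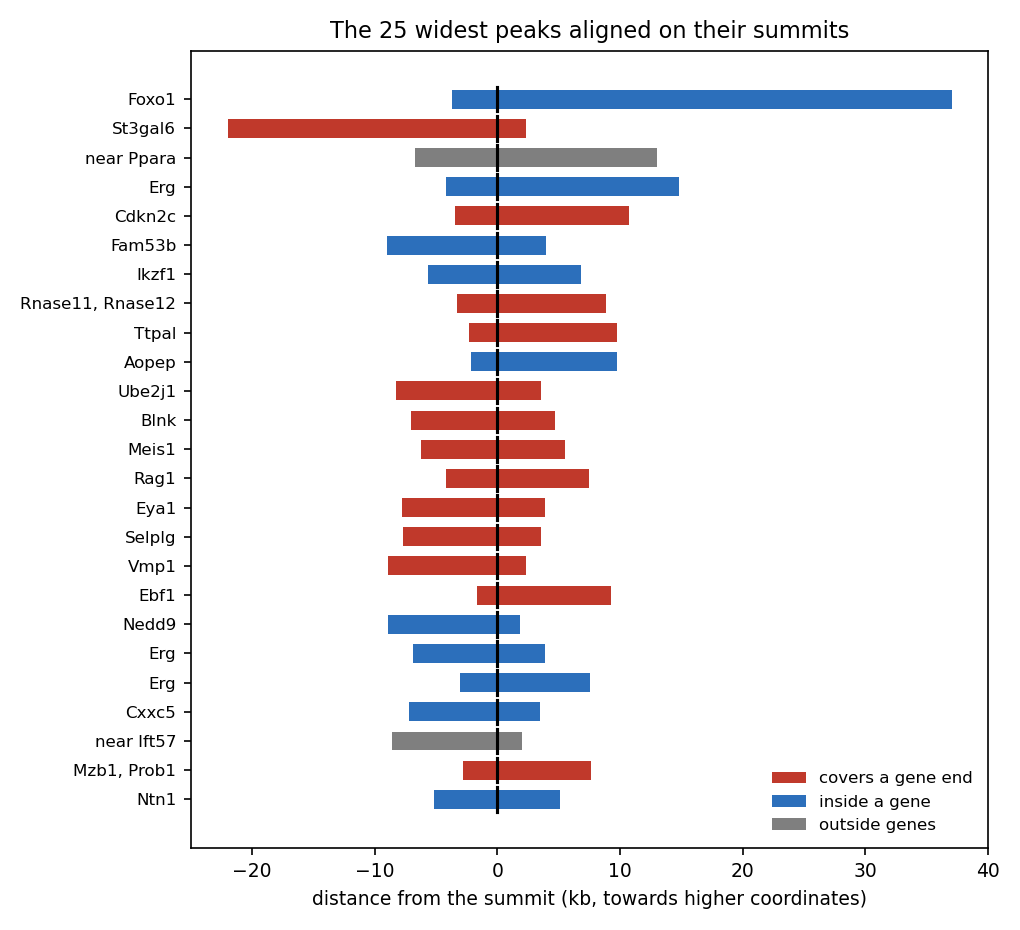
The 25 widest peaks drawn to scale and aligned on their summits (black ticks), in kb towards higher coordinates; colours give the position relative to protein-coding genes. The summit lies near an edge in Foxo1 and St3gal6 and close to the centre in Ntn1.

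The 5 highest signal values were 19.4 at Ppp1r10 and Mrps18b (6403 bp), 18.5 at Cytip (7442 bp), 17.4 at Ppp2r5c (5020 bp), 16.7 at Ankrd11 (4255 bp) and 16.5 at Slamf7 (6094 bp). Cytip and Slamf7 are a lymphocyte adhesion regulator and an immune cell receptor. The lowest 3 were 2.69 at Cd79b (6112 bp), 2.69 at Fli1 (5839 bp) and 2.74 at Mtss1 (5579 bp). Cd79b, a signalling chain of the B-cell receptor, was covered over its whole length of 3.22 kb by that weak peak.

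Of the 564 very broad peaks, 327 lay inside a protein-coding gene without reaching either end, 159 covered a gene end and 78 lay outside such genes. The shares were 58.0% (53.9% to 62.0%), 28.2% (24.6% to 32.0%) and 13.8% (11.2% to 16.9%). Lying inside a gene does not mean lying away from a start, since many genes have more than 1. Apart from chromosome 18, where no starts were used, 59 of the peaks inside a gene held a listed start, as at Ikzf1 and Cytip, and 257 held none. Distances to a gene end below are to the outer ends of the gene span. Narrower peaks covered an end in 13.7% of cases and lay outside in 25.8%. The first share differed between classes of width and strength. It was 30.3% (28.6% to 32.1%) in peaks from 2000 bp up to the threshold. In very broad peaks it was 25.4% (21.4% to 29.9%) under 6000 bp, an interval that overlaps, and 32.4% (25.2% to 40.5%) from there to 10 kb. It was 42.4% (40.5% to 44.4%) in the like-strength peaks described next, and 27.9% (23.0% to 33.4%) in very broad peaks of the same signal range. The summit was within 1 kb of a gene end in 23.2% (19.9% to 26.9%) of very broad peaks and 32.4% (31.8% to 33.1%) of narrower peaks. Among narrower peaks this share also differed with strength. Among the 2484 peaks at least 1000 bp wide but under the threshold, with a signal value between 5.42 and 9.31, the interquartile range of the very broad peaks, 57.4% (55.5% to 59.3%) had a summit within 1 kb of a gene end. These are called like-strength peaks below, although only 283 of the 564 very broad peaks lay in that range themselves. Among the 283 the share was 25.8% (21.0% to 31.2%). The median distance from summit to gene end was 8876 bp (6367 to 11640 bp) for very broad peaks, 8327 bp (4879 to 12909 bp) for the 283 and 8355.5 bp (7887 to 8740 bp) for all narrower peaks. These intervals overlapped, and the like-strength peaks lay closer to gene ends, at a median of 688.5 bp (651 to 754 bp). With all annotated genes in place of protein-coding genes, the share outside genes fell from 13.8% to 7.09%.

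**Figure D3:**
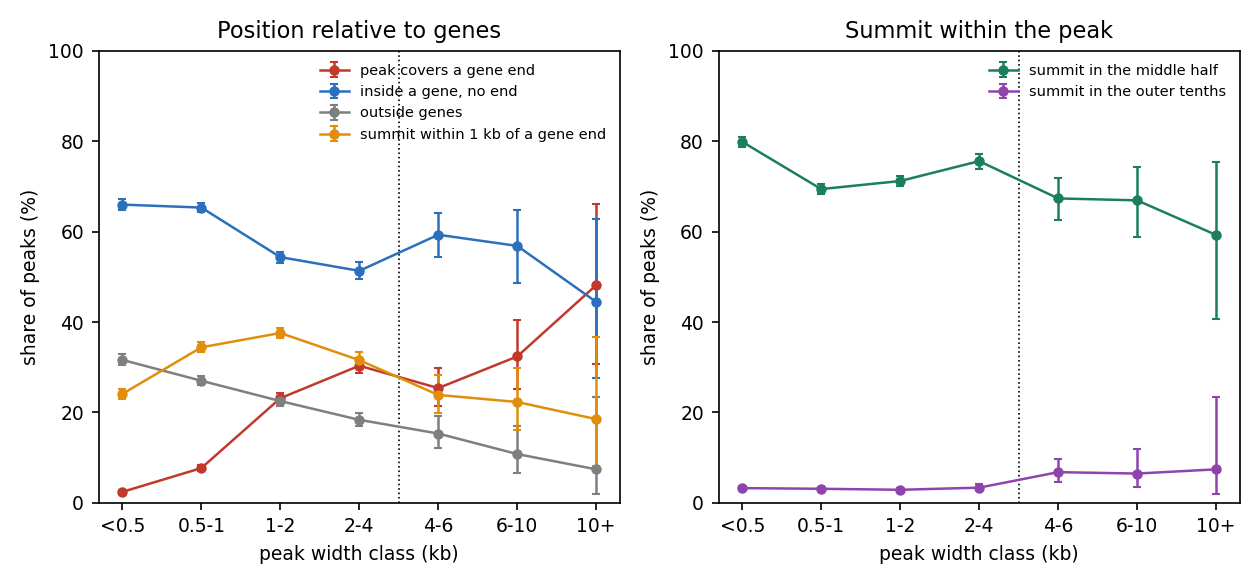
Share of peaks (%) by peak width class (kb), with 95% Wilson intervals; the dotted line marks 4 kb. Left, position relative to protein-coding genes, where the share with a summit within 1 kb of a gene end falls to 18.5% at 10 kb and above while the share covering an end rises to 48.1%. Right, the place of the summit inside the peak.

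Start positions and strand were listed for 81.7% of protein-coding genes on chromosomes 1 to 17 and 19. Of the 548 very broad peaks on these chromosomes, 177 (32.3%, 28.5% to 36.3%) held a listed start, 163 of them the starts of a single gene. The share was 34.3% (28.9% to 40.1%) in those inside the signal range. It was higher in like-strength peaks, 43.7% (41.8% to 45.7%), and lower in all peaks from 1000 bp up to the threshold, 26.1% (25.2% to 27.03%). Where 1 gene started in the peak, distances were taken from its most upstream start there. The very broad peaks ran mostly into the gene. In 146 of 163 (89.6%, 83.9% to 93.4%) more of the peak lay downstream than upstream of the start, against 80.7% (78.0% to 83.1%) of like-strength peaks and 92.0% (84.3% to 96.0%) of the 87 very broad peaks inside the signal range. The median reach was 3.99 kb downstream (3.72 to 4.16 kb) and 1.23 kb upstream (1.10 to 1.45 kb).

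In 85 (52.1%, 44.5% to 59.7%) of these 163 peaks the summit was more than 500 bp past the start, in 58 (35.6%) it was within 500 bp of it and in 20 (12.3%) it was more than 500 bp before it. In like-strength peaks 20.5% (18.1% to 23.3%) of summits were more than 500 bp past the start and 74.2% were within 500 bp. In the 87 very broad peaks inside the signal range the shares were 49.4% (39.2% to 59.7%) and 42.5% (32.7% to 53.0%). The median position was 557 bp (399 to 703 bp) past the start in very broad peaks, 456 bp (306 to 675 bp) in the 87 and 278.5 bp (257 to 298 bp) in like-strength peaks. The choice of start moved single peaks greatly, as at Ikzf1 and Ebf1, and the shares little. From the start nearest the summit, 49.1% (41.5% to 56.7%) of summits in very broad peaks and 17.6% (15.3% to 20.2%) in like-strength peaks were more than 500 bp past it. Measured from the most downstream start, more of the peak lay downstream in 84.0% (77.7% to 88.9%) and 75.9% (73.0% to 78.5%), with intervals that overlapped. For the 87 inside the signal range it was 88.5% (80.1% to 93.6%), which did not overlap the like-strength interval. A longer peak leaves more room for its summit to lie away from the start, and no correction was made for this.

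**Figure D4:**
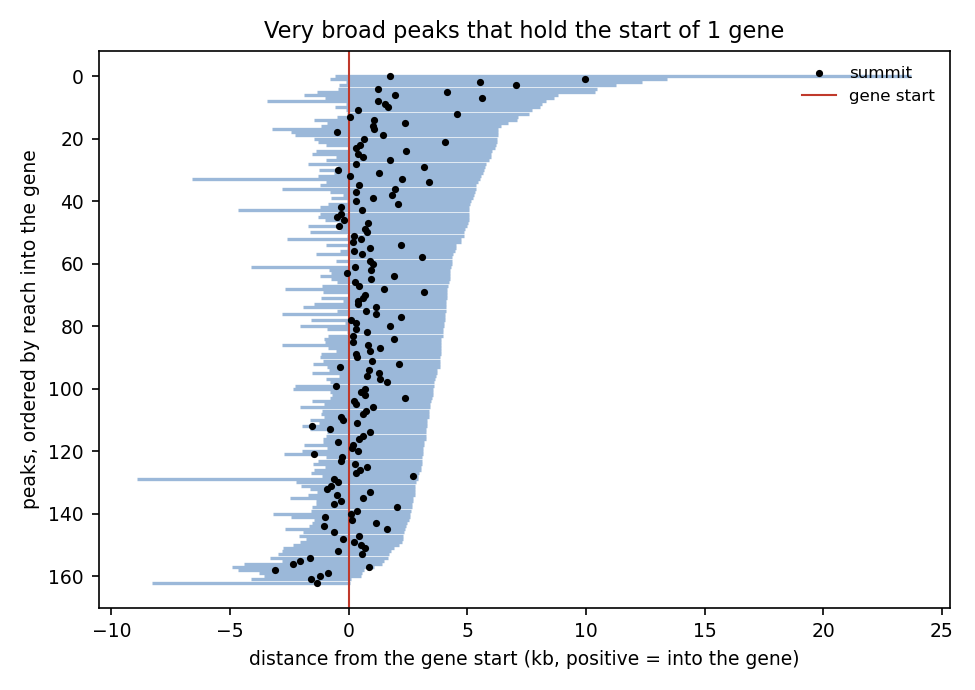
The 163 very broad peaks that hold the start of 1 protein-coding gene, each a line from its upstream to its downstream border (kb from the most upstream start in the peak, positive into the gene), ordered by downstream reach; dots are summits. Most lines reach further right than left, with medians of 3.99 kb downstream and 1.23 kb upstream.

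Gene ends covered by very broad peaks were not only starts. Of the 162 covered ends with a known strand, 134 (82.7%, 76.2% to 87.8%) were the start end, against 984 of 1036 (93.5% to 96.2%) for like-strength peaks. Inside the signal range it was 75 of 89 (75.3% to 90.4%). Of the peaks inside 1 gene of known strand, very broad ones had a median summit position 29.3 kb (21.5 to 40.8 kb) from the outer, most upstream end of the gene, whether or not they held an internal start. The median was 21.8 kb (19.8 to 23.7 kb) for all peaks from 1000 bp up to the threshold, an interval that overlaps that of the very broad peaks, and 2.57 kb (1.79 to 3.94 kb) for the like-strength ones. The summit fell within 20 kb of that end in 41.0% (35.2% to 47.0%) of 266 very broad peaks, in 48.5% (46.9% to 50.1%) of the peaks from 1000 bp up to the threshold and in 70.5% (67.2% to 73.5%) of 809 like-strength peaks.

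CpG content was counted in the 300 bases from 250 before to 50 after the start, taking 1 start for each gene. A start counted wherever it lay in the peak. A longer peak can thus take in starts further from its summit, and no correction was made for this. Of the 189 genes with a start in a very broad peak, 77 (40.7%, 33.99% to 47.9%) had fewer than 10 CpG. Of the 1166 genes with a start in a like-strength peak, 12.3% (10.6% to 14.4%) had so few, and of all 16457 genes with a listed start 41.4%. In very broad peaks inside the signal range it was 39 of 100 genes (30.02% to 48.8%), and in all narrower peaks 14.8% (13.6% to 16.1%). At the other end, 34.4% (28.0% to 41.4%) of the starts in very broad peaks had 25 or more CpG, against 41.9% (39.1% to 44.7%) in like-strength peaks and 25.5% of all. The median was 15 CpG (interquartile range 6 to 29) in very broad peaks and 22 (15 to 30) in like-strength peaks.

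Short motifs in the same 300 bases were searched on both strands by exact letters. CAGCTG, a core bound by E proteins such as E2A, was found at 17.99% (13.2% to 24.1%) of starts in very broad peaks, 12.1% (10.3% to 14.1%) in like-strength peaks and 15.2% of all. AGGAAG, an ETS core, was found at 39.7% (33.0% to 46.8%), 34.9% and 33.7%. TGTGGT, a RUNX core, was found at 14.8%, 11.7% and 14.8%. GGGCGG, bound by SP and KLF factors, was found at 48.7% (41.6% to 55.8%) of starts in very broad peaks, 62.8% (60.0% to 65.5%) in like-strength peaks and 47.3% of all. CCAAT was at 37.0%, 37.5% and 39.1%. A strict palindromic EBF1 site was at 2 of the 189 starts, or 1.06%, and at 0.948% of all. Of these, only for GGGCGG did the intervals of very broad and like-strength peaks not overlap. They did overlap for the 100 genes inside the signal range, of which 54 held it (44.3% to 63.4%). CAGCTG went the other way. Of the 100 genes 21 held it (14.2% to 29.98%), an interval just above that of like-strength peaks (10.3% to 14.1%). These matches describe the letters in the window and are not binding sites.

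The place of the summit inside the peak was nearly symmetric. The median was 49.97% of the way from the low border to the high border (interquartile range 32.2% to 67.6%). The summit lay in the central 50% of the length in 66.8% (62.9% to 70.6%) of very broad peaks, 68.6% (62.9% to 73.7%) of the 283 inside the signal range, 73.2% (72.6% to 73.8%) of narrower peaks and 79.3% (77.7% to 80.9%) of like-strength peaks. It lay in the outermost 10% at either side in 6.74% (4.95% to 9.11%), or 38 peaks, in 5.65% (3.51% to 8.99%) of the 283, in 3.11% (2.89% to 3.35%) of narrower peaks and in 0.684% (0.428% to 1.09%) of like-strength peaks. Of the 38, 20 had the summit at the low border and 18 at the high border. The summits closest to a border relative to length were at 3.40% in Ugcg, an enzyme of glycosphingolipid synthesis, at 4.05% in Rsbn1l and at 4.12% in Il4ra, the interleukin 4 receptor chain, whose summit was 161 bp past the gene start.

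Very broad peaks had close neighbours. The median number of other peaks within 50 kb of the borders was 5 (5 to 6), against 2 (2 to 2) for like-strength peaks and 3 for all narrower peaks. The next peak was within 1 kb in 52.1% (48.0% to 56.2%) of very broad, 51.6% (45.8% to 57.4%) of the 283, 39.9% (39.2% to 40.5%) of narrower and 32.2% (30.4% to 34.1%) of like-strength peaks. No other peak lay within 50 kb of 21 of the 564. The neighbours include weak peaks. When only peaks that reached 5 in −log10 q were kept, the median for very broad peaks was 2. It was not recounted for like-strength or narrower peaks, so the contrast under this filter is not known. This filter applied to both sides and left 543 of the 564 very broad peaks. Joining peaks within 1 kb raised the number of regions of 4000 bp or more from 564 to 1057. Of the very broad peaks as deposited, the smallest gap to another peak was 152 bp.

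The very broad peaks touched 425 protein-coding genes, which is 2.06% of the 20665 on chromosomes 1 to 19, where any peak touched 42.8%. They touched 364 genes once, 45 genes at 2 places and 16 genes at 3 or more. The touched genes were long, with a median of 56.0 kb against 26.7 kb for genes with narrower peaks only and 17.5 kb for all. Nedd9, a scaffold protein of adhesion and migration, had the most with 7, from 4632 to 10775 bp. Its widest had the lowest signal value of the 7, 3.85, and the highest, 13.0, was in a peak of 5460 bp. Foxp1, a forkhead factor needed for B-cell development, had 6, from 4556 to 7337 bp. Zmiz1, a transcriptional coregulator, and Stx8, a vesicle fusion protein, had 5 each. Joined within 50 kb, the 564 peaks formed 464 loci, of which 391 held a single very broad peak and 16 held 3 or more.

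Genes lying wholly inside a very broad peak numbered 17. Besides Cdkn2c, Cd79b, Mzb1 and Prob1 they included Vpreb1 and Igll1, the surrogate light chains of the pre-B-cell receptor, in separate peaks of 7554 and 7480 bp. The rest were Hoxa7, Pcbp1, Zfp36, Rnase10, Rnase12, Gm52799 and the histone genes H2ac20, H2ac21, H2ac8, H2bc7 and H2bc8. The peaks with the most gene ends lay over histone genes, which are short and clustered. One of 4139 bp at chr13:23570344-23574482 touched H2ac8, H2bc8, H2bc7 and H2ac7 and covered 7 ends. Another of 4589 bp at chr3:96218606-96223194 touched H2ac21, H2ac20 and H2bc21 and covered 5. Reads over such near-identical genes may not be placed uniquely, so the heights of these peaks are uncertain.

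Lists of 20 genes each were set beside these counts. They were chosen with earlier results of these data known, so the counts are no independent evidence. Of the B-lineage transcription factors, 13 of 20 were touched by a very broad peak and 19 by any peak, against 2.06% and 42.8% of all genes. The widest for each were at Foxo1, Ikzf1, Ebf1, Tcf4 (9381 bp), Pax5 (8456 bp), Foxp1, Ets1 (7106 bp) and Bach2 (6994 bp). The other 5, named after their values were seen, were Pou2af1, Lef1, Bcl11a, Mef2c and Sox4. Tcf3, Ikzf3, Irf4, Myb, Zeb2 and Bcl6 had only narrower peaks, and Spib had none. Many of these genes are long, with a median of 92.5 kb. Within 1 kb of a gene end, 9 of the 20 had a very broad peak, as did 1.25% of all genes. The part of gene length in these counts was not tested.

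Of the 19 genes of the pre-B-cell receptor, recombination and early B-cell signalling on these chromosomes, 10 were touched by a very broad peak and 16 by any peak, where 2.06% and 42.8% of all genes were. The median length of the 19 genes was 16.5 kb. Blnk and Rag1 came first. Rag2 shared a 7955 bp peak with Iftap, Il7r (the interleukin 7 receptor) had 7160 bp with a signal value of 11.2, and Flt3, a cytokine receptor of multipotent progenitors, had 6094 bp at 13.3. The others were Vpreb1, Igll1 and Cd79b, and, named after their values were seen, Dntt and Cd24a. Cd79a (3852 bp) and Bank1 (3562 bp) were among those with narrower peaks only. Blk, Cd22 and Ms4a1 had no peak. The sort required cells without lineage markers. The part of any B-lineage cells in the sorted pool in these peaks was not tested, and in a bulk sample few cells with much mark and many cells with little cannot be told apart.

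The counts in the other lists are to be read against the 2.06% of all genes touched by a very broad peak and the 42.8% touched by any peak. In the stem cell and early progenitor list 4 of 20 were touched, Erg, Meis1, Kit (6129 bp) and Fli1. Any peak touched 9 of the 20, close to the share of all genes. Runx1 had 20 peaks, the widest 3516 bp, and Hoxa9 one of 3994 bp, just under the threshold. A very broad peak of 9801 bp (chr6:52211929-52221729) covered all of Hoxa7 and touched Hoxa3, which are not in the list. Gata2, Tal1, Lmo2, Hlf and Procr, which mark stem cells, had no peak on the gene. In the myeloid list Gfi1, a transcriptional repressor in blood progenitors, was the only gene of 20 touched (4076 bp), which is near the share of all genes, and 4 of the 20 had any peak. In the T-cell and innate lymphoid list, Gata3 (7111 bp) and Zap70 (6132 bp) were touched. None of 17 erythroid and megakaryocyte genes was, which is what the share of all genes would give for so few. The stem cell count was 7 with a width of at least 3000 bp, where 4.31% of all genes were touched. Within 1 kb of gene ends the stem cell count was 2. With spans widened by 50 kb, which took in 4.91% of all genes, the stem cell count was 6 and the myeloid count 3.

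All 19 housekeeping genes and all 19 chromatin regulators on these chromosomes had a peak on the gene. None of the housekeeping genes was touched by a very broad peak, where 4.81% of all genes with any peak were, so a count of 0 among 19 is near that share. These genes are short, with a median of 5.88 kb against 56.0 kb for genes touched by very broad peaks. The widest peak of each ran from 266 to 2405 bp, and after joining peaks within 1 kb, when 3.78% of all genes were touched, 2 of the 19 reached 4000 bp. Of the chromatin regulators 3 were touched, Zmiz1, Smarca4 (the Brg1 remodeller, 6551 bp) and Kdm2b (5778 bp). Their median length was 81.5 kb. Kmt2c and Kmt2d, the deleted genes, had no very broad peak, and their widest peaks were 1361 and 1739 bp.

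**Figure D5:**
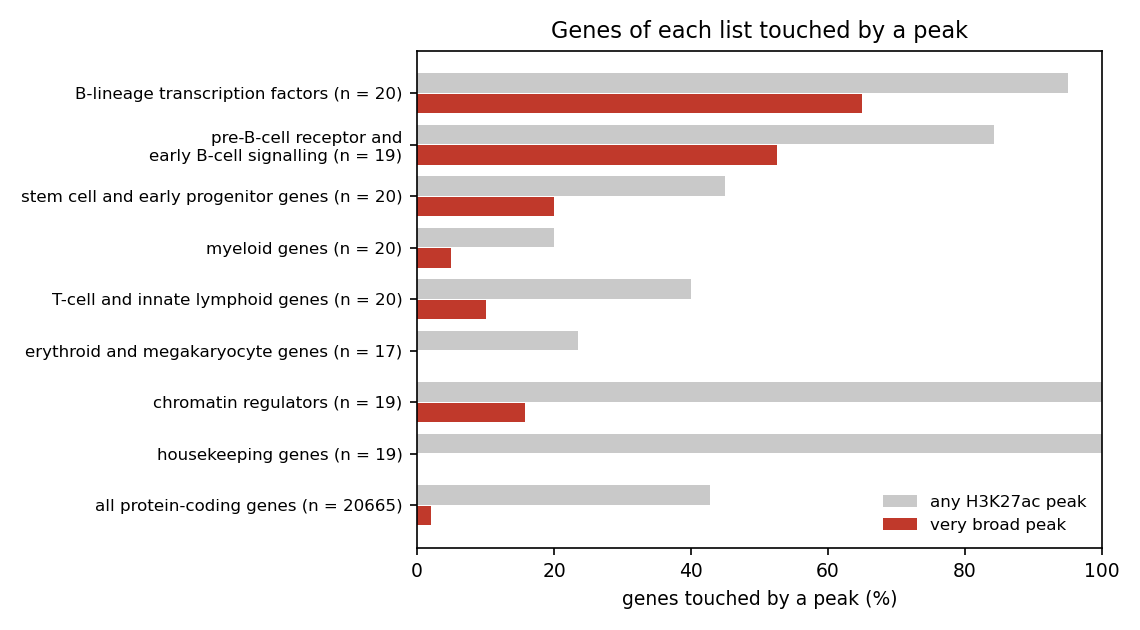
Share of genes (%) in each list, and among all protein-coding genes on chromosomes 1 to 19, touched by any H3K27ac peak (grey) or by a very broad peak (red); n is the number of genes on these chromosomes. The red bars reach 65% and 52.6% for the B-lineage lists and 0% for housekeeping genes, against 2.06% of all genes.

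The 78 very broad peaks outside protein-coding genes had a median signal value of 7.15, between the 8.45 of those covering an end and the 6.38 of those inside genes. Their borders were a median of 42.9 kb from the nearest protein-coding gene, and 21 were more than 100 kb away. Of the 78, 30 touched a lncRNA gene and 40 touched no annotated gene. After the peaks near Ppara and Ift57, the widest were 9923 bp, 31.0 kb from Pttg1 (chr11:43379316-43389238), 9395 bp, 5.19 kb from Cdk18 (chr1:132098964-132108358), and 8958 bp over the lncRNA gene Pvt1, 47.1 kb from Myc (chr15:62037444-62046401).

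Very broad peaks contained 6 of the 919 miRNA hairpins listed on these chromosomes. The arms below are shown because they belong to miRNAs well known in lymphocytes, with the seed, bases 2 to 8, in capitals.
mmu-miR-15b-5p: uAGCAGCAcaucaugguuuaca
mmu-miR-16-5p: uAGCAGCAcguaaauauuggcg
mmu-miR-21a-5p: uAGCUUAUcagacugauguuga
The first 2 share their seed and come from neighbouring hairpins inside Smc4, a condensin subunit, where the peak was 7743 bp wide with a signal value of 5.97 and a summit 3.35 kb before Mir15b. The third comes from Mir21a, inside the 11201 bp peak at the far end of Vmp1, whose summit lay 2.11 kb from the hairpin's low end. The other hairpins were Mir1932, Mir1904 and Mir1894. Whether any of these miRNAs was expressed was not measured.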

How the data were processed

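The deposited list holds H3K27ac peaks over Input for 4 pooled libraries. Per the submitters' processing notes, BWA, MACS2 and the build mm10 were used; their roles, versions and settings are not given in the sources used here. The authors' columns are a score, a fold enrichment ratio (signal value), −log10 p (not used), −log10 q and the summit offset. Depth is not given in the list, and no value of a single library was used.

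Coordinates are 1-based. Genes and starts came from RefSeq tables of GRCm38.p6, the assembly of mm10. No starts on chromosome 18 were used. For genes touched by very broad peaks on the other chromosomes, 82.6% had a listed start. A gene was touched when a peak overlapped its span by 1 bp. Python 3.11.15, pandas 2.3.3 and scipy 1.17.1 were used; placement was tested on simulated data.

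The members and lists were chosen with earlier results of these data known. Peaks of like strength, start geometry, CpG classes and miRNAs were added after the data were seen. Named were the 25 widest, touched list genes (8 a list), the 5 strongest and 3 weakest, the 5 widest outside genes, the 3 with most ends, the 3 genes with most peaks, the 3 with summits nearest a border, and the deleted genes. Alternatives were other widths, a stricter q, joined peaks and other gene definitions.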

Additional observations from a re-analysis of the deposited data

How the results depend on the processing

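Of 105 values recomputed under 14 alternatives, 78 stayed within their interval or within 1.5 times the count and 27 moved. The share of all genes touched was 2.06% as reported, 4.31% with a width of at least 3000 bp, 0.644% with at least 6000 bp, 2% with the stricter q and 3.78% after joining, and list counts are to be read against it. With at least 3000 bp there were 1248 peaks (median 3864 bp), the median number of neighbours was 4, and 7 stem cell genes and 6 chromatin regulators were touched. With at least 6000 bp there were 166 peaks (median 7386.5 bp), 34.9% covered a gene end, 10.2% lay outside genes, the median number of neighbours was 7 and 0 myeloid genes were touched. Joining peaks within 1 kb gave 1057 peaks (median 5341 bp), with 34.3% covering an end, 51.7% inside genes, 3 neighbours and 2 housekeeping genes touched. With −log10 q of at least 5 there were 543 very broad peaks and fewer neighbours to count, and the median number of neighbours was 2. Within 20 kb, without this filter, the median was 3. With all annotated genes 38.8% covered an end and 7.09% lay outside. With ends within 1 kb counted, 40.4% reached an end and 46.6% lay inside. Spans widened by 50 kb gave 3 myeloid genes and 1 erythroid or megakaryocyte gene. Within 1 kb of gene ends there were 2 stem cell genes and 1 T-cell or innate lymphoid gene. The choice among several starts of a gene and the limit to members inside the signal range were added after the data were seen. The B-lineage lists ranged from 9 to 15 and from 8 to 13 genes. Leaving out libraries was not possible with 1 list for all of them. No paired analysis was possible because each deposited column stands for the 4 libraries together. The depth is unknown.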

Other observations

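Very broad peaks touched 3 genes of the ribonuclease A family on chromosome 14. Rnase11 was touched by 2, of 12139 and 5782 bp, the wider of which also covered Rnase12, and Rnase10 was covered by 1 of 4489 bp. With 1 of 7021 bp outside genes, these peaks formed a locus of 4 over 89.6 kb. Ntn1, an axon guidance cue, was touched by 3, the widest 10302 bp with a signal value of 5.89. These genes were chosen after their values were seen.

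At antigen receptor loci, 3 very broad peaks touched immunoglobulin heavy chain segments. The strongest, 4382 bp over Ighj2, Ighj3 and Ighj4, had a signal value of 15.1. The other 2 were 5166 bp over Ighv1-66 and 5111 bp over Ighv1-75. Further very broad peaks of 5622, 5492, 5209 and 4552 bp lay between the Ighj2 and Ighv1-75 peaks on chromosome 12. They touched no listed segment. The share of all peaks that were very broad ran from 16 of 1000 on chromosome 8 to 3.16% (25 of 790) on chromosome 16, and the intervals of these 2 shares (0.987% to 2.58% and 2.15% to 4.63%) overlapped. A single peak of 4000 bp or more lay on the X chromosome, 5441 bp inside Mid1 with a signal value of 2.84, and was outside the rule.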
